A study of Homo sapiens with 6 samples.

Results

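The genes described here are 48 genes of DNA double-strand break repair and the Fanconi pathway, out of 58735 genes in the expression table. They were chosen by name and by role: 12 genes of break sensing and signalling, 9 of end joining, 16 of homologous recombination and 11 of the Fanconi pathway. Earlier results of these data were known when they were chosen. All 48 names were found, each in 1 row. RNA was sequenced from SK-MES-1 cells, a human line from a lung squamous cell carcinoma. Cells had transient knockdown of KRT6A, a keratin of stratified epithelia, in 2 groups that the labels call si2 and si1, and the control cells are called NC. Each group has 2 libraries. The labels give no long form of these names and do not describe the reagents, the time after knockdown or the treatment of the control, nor do they say whether the libraries of a group came from separate cultures. The p-values below therefore measure the spread between these libraries, which may be technical, and all results come from 1 cell line.

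A double-strand break is recognised by the MRE11-RAD50-NBN complex and by the kinases ATM and ATR, which pass the signal to checkpoint kinases and to a chain of ubiquitin ligases on the flanking chromatin. The break is then either rejoined end to end or copied from the sister chromatid by homologous recombination, which is used mainly in S and G2 phase. The Fanconi pathway deals with DNA crosslinks: a multi-subunit core complex attaches ubiquitin to the FANCD2-FANCI pair, which directs the cutting of the crosslink and its repair by homologous recombination. Ionising radiation kills cells mainly through double-strand breaks, and the study concerns resistance to radiotherapy, per its title.

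The 6 libraries held 14948607 to 17401392 reads recovered from the deposited values, and 12333 to 12439 genes reached 1 FPKM in each. FPKM is fragments scaled by gene length and library depth. The length used here is that of all annotated exons of a gene together, so levels of different genes can be compared only roughly. KRT6A itself had 0 reads in all 6 libraries, NC included, so the knockdown cannot be checked from its target. For counting error alone, a count of 0 was given a limit of 3 reads, or 0.0583 to 0.0678 FPKM per library. How reads that match more than 1 gene were counted is not given in the sources used here. Of 8 squamous markers only TP63 reached 1 FPKM, and KRT6A and DSG3 were at 0 in every library. The squamous markers summed to 12.01 to 14.4 FPKM in si2, 5.84 to 6.38 FPKM in si1 and 6.34 to 7.15 FPKM in NC. Of 6 epithelial markers 5 reached 1 FPKM, with sums of 264 to 277 FPKM in si2, 370.4 to 376 FPKM in si1 and 354.6 to 379 FPKM in NC. None of 5 leukocyte or 4 endothelial markers reached 1 FPKM, with summed levels of at most 0.353 and 0.510 FPKM in any library. Of 6 fibroblast markers 2 reached 1 FPKM, with sums of 22.9 to 23.4 FPKM in si2, 20.0 to 24.99 FPKM in si1 and 17.1 to 17.5 FPKM in NC.

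In NC cells the members covered a wide range of levels. The most abundant were the 2 subunits of the Ku ring that caps broken ends, XRCC6 at 104 and 105 FPKM in NC and XRCC5 at 106 and 103 FPKM in NC, 2 genes whose NC values overlap. PARP1, an enzyme that marks breaks with poly(ADP-ribose), and PRKDC, the catalytic subunit of DNA-dependent protein kinase, followed at 36.2 and 38.5 FPKM in NC and 37.4 and 36.1 FPKM in NC. Among sensing genes NBN was highest, at 12.6 and 12.03 FPKM in NC, and its complex partner RAD50 was lowest, at 0.674 and 0.734 FPKM in NC. Another gene on the same strand covers 79.7% of the RAD50 exon bases, so shared reads may be missing from its level. FANCI led the Fanconi genes at 15.2 and 14.9 FPKM in NC, and FANCB was the lowest of them at 1.42 and 1.14 FPKM in NC. Within homologous recombination the levels ran downward from RBBP8, which starts the trimming of broken ends, at 10.9 and 10.7 FPKM in NC, to RAD51B at 0.520 and 0.739 FPKM in NC.

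Fold changes below are on the log2(FPKM + 1) scale, which understates the change of low genes, with the standard error (SE) of limma. A gene was tested if its mean over the 6 libraries was at least 1 FPKM, and it passed where its p, adjusted by the Benjamini-Hochberg method across the 12319 genes tested, was under 0.05. This left 44 of the 48 members. RAD50, NHEJ1, RAD51B and RAD51D were below the filter and are described by their reads further on. The fit used all 6 libraries, and si1 against NC and si2 against NC share the NC libraries. Likewise, si2 against si1 shares the si1 libraries with si1 against NC and the si2 libraries with si2 against NC. The comparisons are therefore not independent of each other. In bulk RNA, fewer cells of a type and less RNA per cell cannot be told apart.

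The members differed most between si2 and si1. Of the 44 tested, 23 were higher and 3 were lower in si2 than in si1. Among all genes tested, 38.5% passed in this comparison, 19.9% higher and 18.6% lower. The median log2 fold change was 0.32 over the members and 0.011 over all genes tested. The higher members were mainly genes of homologous recombination (11 of 14 tested, median 0.50) and of the Fanconi pathway (7 of 11, median 0.42). Sensing genes gave 2 of 11 (median 0.18) and end joining genes 3 of 8 (median 0.21). The 3 lower members were PARP1, FANCE and FANCF. With the first si2 library left out 12 members passed, and with the second left out 16, so this count depends on the si2 pair.

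**Figure D1:**
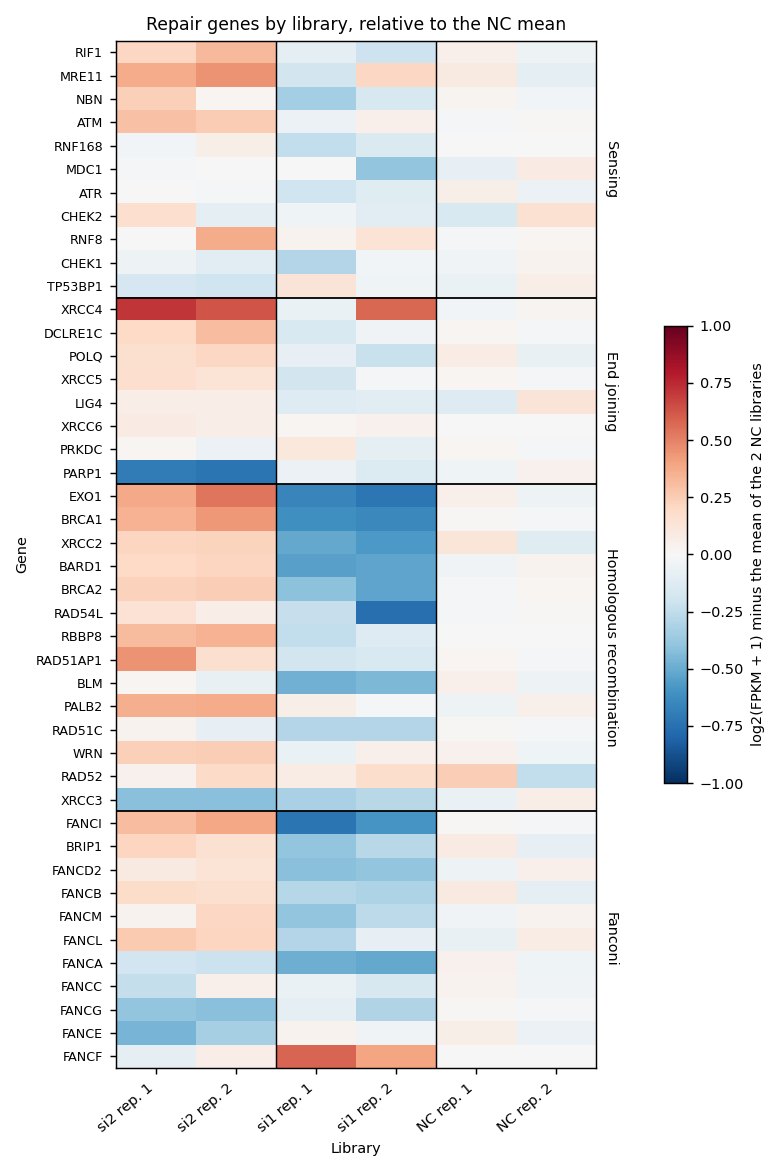
Level of the 44 tested members in each library, as log2(FPKM + 1) minus the mean of the 2 NC libraries, with genes in rows by role and libraries in columns (red, above NC; blue, below NC). EXO1, BRCA1 and FANCI are red in both si2 libraries and blue in both si1 libraries, and PARP1 is blue in si2 and near NC in si1.

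Each group was also set against NC. In si1, 1 member was higher and 11 were lower than in NC, against 9.47% of all tested genes higher and 12.9% lower (22.4% in all). The median was -0.17 over the members and -0.0071 over all genes. In si2, 6 members were higher and 4 lower than in NC, where the shares over all genes were 13.6% higher and 15.4% lower (29.0% in all). The median was 0.13 over the members and 0.0046 over all genes. For the mean of both groups against NC, no member was higher and 4 were lower (PARP1, XRCC3, FANCA and FANCG), with 8.73% of all genes higher and 11.8% lower (20.5% in all). At an unadjusted p under 0.05 limma gave 8 members in this last comparison, and limma voom on the recovered reads gave 1 higher and 5 lower at the adjusted threshold. These counts depended on single libraries. The si1 count of 12 was 5 without the first NC library and 6 without the second. The si2 count of 10 was 2 without the first NC library, 1 without the second, 3 without the first si2 library and 2 without the second. The count of 4 for both groups was 1 without the first NC library, 0 without the second, and 1 without either si2 library. Without the second NC library, 6 members had an unadjusted p under 0.05.

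Among the genes of homologous recombination, BRCA1 and its partner BARD1 were both highest in si2 and lowest in si1. BRCA1 (ENSG00000012048, chr17:43044295-43170245, hg38, minus strand) and BARD1 (ENSG00000138376, chr2:214725646-214809711, minus strand) form a ubiquitin ligase that acts at broken DNA and promotes the trimming of ends. BRCA1 had 10.8 and 11.5 FPKM in si2, 5.05 and 4.93 FPKM in si1, and 8.34 and 8.18 FPKM in NC. The 3 groups did not overlap: si2 was the highest and si1 the lowest, with a mean in si2 that was 2.23 times the si1 mean. The log2 difference of si2 from si1 was 1.02 ± 0.074, adjusted p = 0.000152. Against NC, BRCA1 rose in si2 (0.39 ± 0.074, adjusted p = 0.00934) and fell in si1 (-0.63 ± 0.074, adjusted p = 0.00169). BARD1 had 5.57 and 5.64 FPKM in si2, 2.94 and 2.98 FPKM in si1, and 4.596 and 4.87 FPKM in NC. Its order was the same, with si2 over si1 at 0.74 ± 0.081, adjusted p = 0.000712, and it fell in si1 against NC by a log2 difference of -0.53 ± 0.081, adjusted p = 0.00474. The si2 value lay above NC by 0.20 ± 0.081, which did not pass (adjusted p = 0.104). The rise of BRCA1 over NC in si2 did not pass without the first NC library (adjusted p = 0.0548), the second NC library (adjusted p = 0.0684) or the second si2 library (adjusted p = 0.0633).

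EXO1 (ENSG00000174371, chr1:241847967-241895148, plus strand), a nuclease that digests one strand over long distances from the break, had the largest difference of any member between si2 and si1. It had 9.25 and 10.4 FPKM in si2, 3.99 and 3.796 FPKM in si1, and 7.17 and 6.64 FPKM in NC. All 3 groups were separate, si2 again the highest, and the si2 mean was 2.53 times the si1 mean (log2 difference 1.15 ± 0.088, adjusted p = 0.000184). Against NC it rose in si2 (0.45 ± 0.088, adjusted p = 0.0102) and fell in si1 (-0.69 ± 0.088, adjusted p = 0.00224). The rise in si2 was lost without the second NC library (adjusted p = 0.0761) or the second si2 library (adjusted p = 0.0642). RBBP8, also called CtIP, starts the digestion that EXO1 extends. It had 13.7 and 13.98 FPKM in si2, 8.93 and 9.795 FPKM in si1, and 10.9 and 10.7 FPKM in NC. Both si2 values exceeded all others, with a difference of 0.52 ± 0.074, adjusted p = 0.00199 from si1 and 0.33 ± 0.074, adjusted p = 0.0168 from NC. The difference from NC was lost when any 1 NC or si2 library was left out (adjusted p of 0.0755 to 0.0982). In si1 the value relative to NC was -0.19, which did not pass (adjusted p = 0.114).

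**Figure D2:**
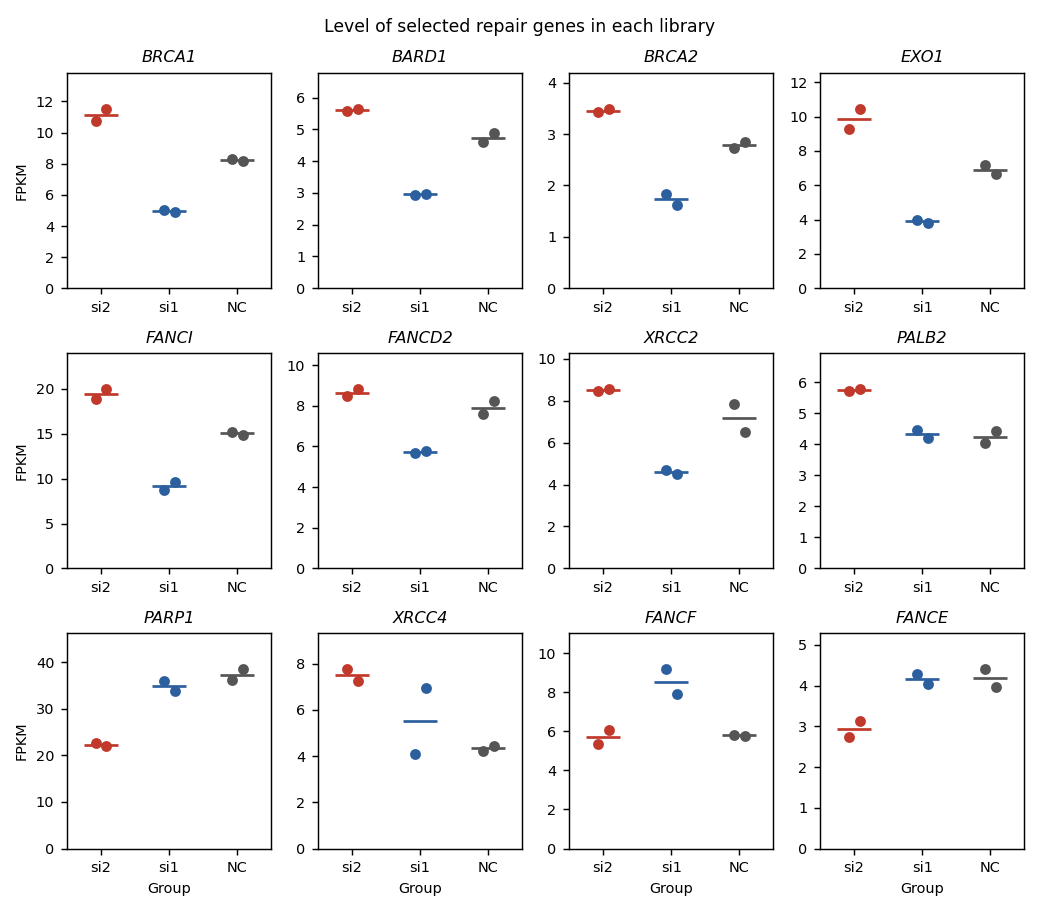
FPKM of 12 members in each library (points) with the mean of the 2 libraries (bars), for si2, si1 and NC, each panel with its own axis from 0. BRCA1, BARD1, BRCA2, EXO1 and FANCI are highest in si2 and lowest in si1, PARP1 and FANCE are lowest in si2, FANCF is highest in si1, and the 2 si1 values of XRCC4 lie far apart.

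BRCA2 loads the recombinase onto single-stranded DNA, and PALB2 links it to BRCA1. BRCA2 had 3.42 and 3.49 FPKM in si2, 1.84 and 1.62 FPKM in si1, and 2.72 and 2.84 FPKM in NC. In limma its si2 value lay above NC by 0.24 ± 0.10, which did not pass (adjusted p = 0.125). It was higher in si2, with a difference from si1 of 0.71 ± 0.10, adjusted p = 0.00207 and fell in si1 against NC (-0.47 ± 0.10, adjusted p = 0.0181). That fall was not past the threshold without the first NC library (adjusted p = 0.0858), the second (adjusted p = 0.0998) or the second si1 library (adjusted p = 0.064). PALB2 had 5.73 and 5.78 FPKM in si2, 4.46 and 4.19 FPKM in si1, and 4.06 and 4.43 FPKM in NC, and here si1 and NC overlapped. It rose in si2 against both, by 0.34 ± 0.084, adjusted p = 0.0168 over si1 and by 0.37 ± 0.084, adjusted p = 0.0178 over NC. The rise over NC did not pass without any 1 NC or si2 library (adjusted p of 0.0621 to 0.108), and that over si1 did not pass without either si2 library (0.0743 and 0.0753) or the second si1 library (0.0567).

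XRCC2 and RAD51C belong to the family of recombinase paralogs that help to build the filament on the broken strand. XRCC2 (ENSG00000196584, chr7:152644779-152676165, minus strand) had 8.48 and 8.55 FPKM in si2, 4.71 and 4.49 FPKM in si1, and 7.85 and 6.52 FPKM in NC. Its si2 values were nearly equal and above both other groups, its NC values were spread more widely, and its si1 values were the lowest. In limma the si2 value lay above NC by 0.22 ± 0.096, which did not pass (adjusted p = 0.129). The si2 difference from si1 was 0.76 ± 0.096, adjusted p = 0.00122, and the fall in si1 against NC was -0.54 ± 0.096, adjusted p = 0.00854, which was lost without the first NC library (adjusted p = 0.0592). RAD51C had 7.54 and 6.89 FPKM in si2, 5.83 and 5.83 FPKM in si1, and 7.44 and 7.27 FPKM in NC. The fitted difference was 0.27 ± 0.077, adjusted p = 0.0327 between si2 and si1, and -0.29 ± 0.077, adjusted p = 0.0367 between si1 and NC. Both RAD51C calls were lost when any 1 of the 6 libraries was left out (adjusted p of 0.0581 to 0.183 and of 0.055 to 0.175). XRCC3, another paralog, did not share this order. It had 1.59 and 1.59 FPKM in si2, 1.77 and 1.85 FPKM in si1, and 2.304 and 2.62 FPKM in NC, so NC was the highest group, and it fell in si2 against NC (-0.42 ± 0.12, adjusted p = 0.0349). This call was lost without any 1 NC or si2 library (adjusted p of 0.0872 to 0.186). For XRCC3, 76.7% of the exon bases lie opposite exons of KLC1, which had 1.51 to 2.08 FPKM, and whether reads were counted by strand is not given in the sources used here, so its values are uncertain.

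BLM, a helicase that works with EXO1 and later dissolves joined molecules, had 4.77 and 4.41 FPKM in si2, 3.08 and 3.17 FPKM in si1, and 4.895 and 4.496 FPKM in NC. Here si2 and NC overlapped and si1 was lower than both: the difference was 0.44 ± 0.089, adjusted p = 0.00833 for si2 over si1 and -0.46 ± 0.089, adjusted p = 0.0113 for si1 over NC. The difference between si2 and si1 had an adjusted p of 0.0564 without the first si2 library, and the fall in si1 against NC had 0.0889 without the first NC library. RAD51AP1, which aids the strand exchange, had 10.5 and 8.38 FPKM in si2, 6.41 and 6.54 FPKM in si1, and 7.51 and 7.28 FPKM in NC. It was higher in si2, with a difference from si1 of 0.47 ± 0.10, adjusted p = 0.0117, a call lost without the first si2 library (adjusted p = 0.0593). RAD54L, a motor protein of the same step, had 6.898 and 6.51 FPKM in si2, 5.103 and 3.24 FPKM in si1, and 6.11 and 6.204 FPKM in NC. Its 2 si1 values differed from each other more than the si1 and NC ranges were apart, and si2 exceeded si1 by 0.60 ± 0.16, adjusted p = 0.0238, lost without either si2 library (adjusted p of 0.0985 and 0.0674). Exons of LRRC41 on the other strand cover 25.1% of its exon bases, and LRRC41 was lower in si2 (11.3 and 9.95 FPKM) than in si1 (14.5 and 13.7 FPKM). WRN and RAD52 passed in no comparison: WRN, a helicase, ranged over 4.44 to 5.75 FPKM, and RAD52, which anneals single strands, over 1.17 to 2.06 FPKM. For RAD52 the 95% interval of the si2 difference from si1 was -0.44 to 0.42, which leaves room for changes in both directions.

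Of the Fanconi genes, the substrate pair FANCD2 and FANCI followed the order of BRCA1. For FANCD2 the si2 value lay above NC by only 0.11 ± 0.077 in limma, which did not pass (adjusted p = 0.301). FANCI (ENSG00000140525, chr15:89243949-89317261, plus strand) had 18.9 and 19.97 FPKM in si2, 8.69 and 9.64 FPKM in si1, and 15.2 and 14.9 FPKM in NC. Its groups were all apart, with an si2 mean 2.12 times the si1 mean, and a log2 difference of 1.01 ± 0.076, adjusted p = 0.000174. It rose in si2 over NC (0.35 ± 0.076, adjusted p = 0.0154) and fell in si1 (-0.66 ± 0.076, adjusted p = 0.00161). The rise over NC was lost without any 1 NC or si2 library (adjusted p of 0.0576 to 0.0965). FANCD2 (ENSG00000144554, chr3:10026414-10101930, plus strand) had 8.48 and 8.81 FPKM in si2, 5.67 and 5.78 FPKM in si1, and 7.59 and 8.24 FPKM in NC. Both si2 and NC lay above si1: the difference was 0.52 ± 0.077, adjusted p = 0.00228 for si2 over si1 and -0.40 ± 0.077, adjusted p = 0.0111 for si1 over NC, lost without the second NC library (adjusted p = 0.0835). BRIP1, a helicase that binds BRCA1, had 5.56 and 5.298 FPKM in si2, 3.299 and 3.65 FPKM in si1, and 4.99 and 4.33 FPKM in NC. It was higher in si2, with a difference from si1 of 0.52 ± 0.096, adjusted p = 0.00575, and its fall in si1 against NC (-0.34 ± 0.096, adjusted p = 0.0459) was lost when any 1 of the 6 libraries was left out (adjusted p of 0.0684 to 0.244).

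Subunits of the core complex differed in direction. FANCL, its ubiquitin ligase, had 14.5 and 14.1 FPKM in si2, 9.59 and 11.3 FPKM in si1, and 11.3 and 12.7 FPKM in NC, and was higher in si2, with a difference from si1 of 0.42 ± 0.097, adjusted p = 0.0130, lost without the first si2 library (adjusted p = 0.0697). FANCM, which anchors the complex to DNA, had 2.01 and 2.38 FPKM in si2, 1.23 and 1.44 FPKM in si1, and 1.87 and 2.004 FPKM in NC, with a difference of 0.45 ± 0.13, adjusted p = 0.0300. FANCB had 1.59 and 1.55 FPKM in si2, 0.868 and 0.839 FPKM in si1, and 1.42 and 1.14 FPKM in NC, with a difference of 0.47 ± 0.14, adjusted p = 0.0390. In si1 FANCB lay below 1 FPKM in both libraries, and it passed the filter through its mean over all groups. FANCA had 2.85 and 2.79 FPKM in si2, 2.14 and 2.08 FPKM in si1, and 3.52 and 3.27 FPKM in NC: NC was the highest group, si1 the lowest, and si2 in between. FANCA was higher in si2, with a difference from si1 of 0.30 ± 0.097, adjusted p = 0.0465, and lower in si1 than in NC by -0.50 ± 0.097, adjusted p = 0.0118. Its exon bases lie opposite ZNF276 for 23.6%, a gene at 1.25 to 1.86 FPKM. Those of FANCL lie opposite VRK2 and AC007250.1 for 19.7%. The si2 calls of FANCA and FANCB over si1 were lost without any 1 of the 6 libraries (adjusted p of 0.0785 to 0.161 and of 0.0551 to 0.127), that of FANCM without any 1 except the second si1 library (0.0524 to 0.139), and the fall of FANCA in si1 without either NC library (0.0896 and 0.0552).

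FANCE, FANCF and FANCG are further subunits of the same complex. FANCE, which binds FANCD2, had 2.75 and 3.12 FPKM in si2, 4.29 and 4.04 FPKM in si1, and 4.401 and 3.96 FPKM in NC. Both si2 values lay below all 4 others, with -0.39 ± 0.098, adjusted p = 0.0186 against si1 and -0.40 ± 0.098, adjusted p = 0.0240 against NC. FANCF (ENSG00000183161, chr11:22622890-22625841, minus strand), an adaptor of the complex, had 5.36 and 6.09 FPKM in si2, 9.18 and 7.93 FPKM in si1, and 5.82 and 5.77 FPKM in NC. Both si1 values exceeded all others, by 0.49 ± 0.097, adjusted p = 0.0130 over NC, so FANCF was the only member that passed as higher in si1 than in NC. The si2 difference from si1 was -0.50 ± 0.097, adjusted p = 0.00675. Exons of GAS2 on the other strand cover 11.3% of the FANCF exon bases. FANCG had 4.89 and 4.78 FPKM in si2, 6.24 and 5.28 FPKM in si1, and 6.81 and 6.65 FPKM in NC, and fell in si2 against NC (-0.41 ± 0.092, adjusted p = 0.0177). FANCC, the remaining subunit listed, ranged over 1.43 to 1.97 FPKM and passed in no comparison (95% interval -0.31 to 0.36 for si2 over si1). The falls of FANCE and FANCG in si2 against NC were lost without any 1 NC or si2 library (adjusted p of 0.051 to 0.136 and of 0.0738 to 0.0937). The FANCE difference from si1 was lost without the first si1 (0.076) or first si2 library (0.102), and the rise of FANCF in si1 without either NC library (0.0768 and 0.074).

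**Figure D3:**
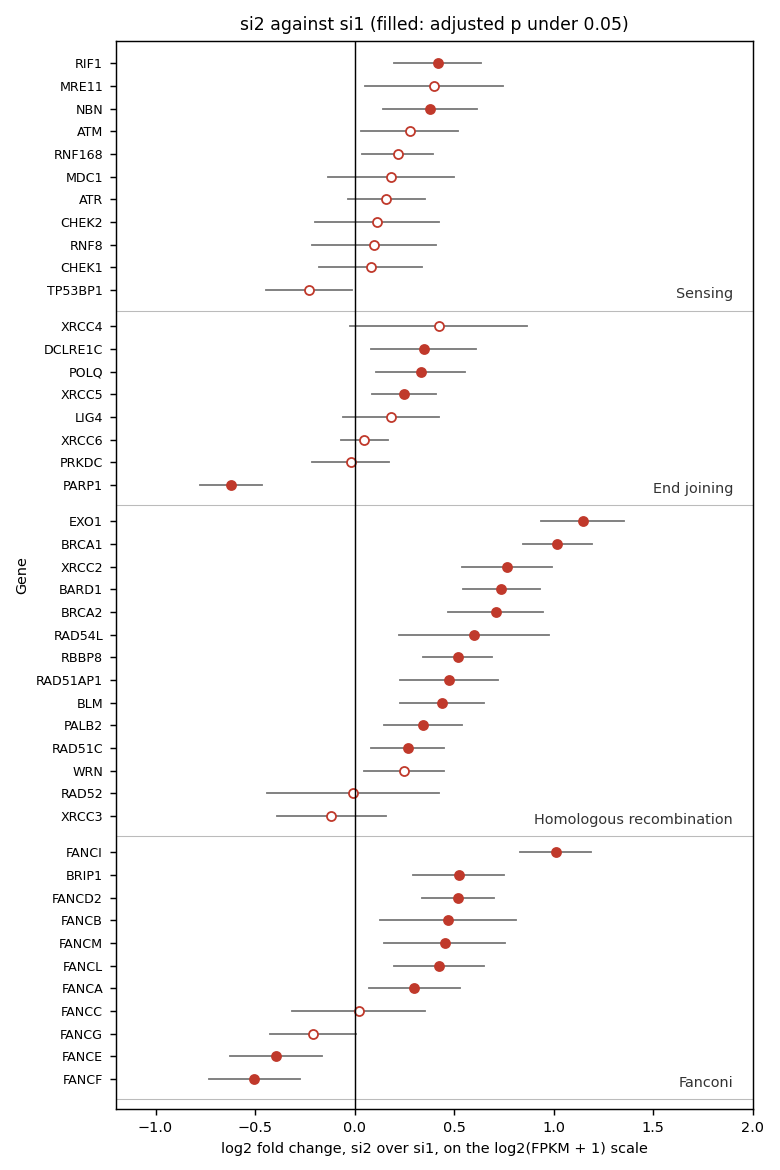
log2 fold change of si2 over si1 for the 44 tested members, by role, with 95% intervals (lines) and filled points where the adjusted p was under 0.05. EXO1, BRCA1 and FANCI lie above 1, the sensing genes lie between -0.23 and 0.42, and PARP1, FANCE and FANCF are the filled points below 0.

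Promoter sequences of 3 of these genes are shown because each carries, close to its start, letters like those bound by E2F factors, which drive many genes of S phase. Each is the RefSeq promoter (GRCh38.p14), 250 bases before and 50 after the start, read along the gene's strand. The capitals mark a match to TTTCGCGC, TTTGGCGC, TTTCCCGC or TTTGCCGC on either strand. They begin 4 bases after the start base in EXO1 and 21 after it in XRCC2, and 2 bases before it in FANCD2.
EXO1, chr1:241847954-241848253, plus strand: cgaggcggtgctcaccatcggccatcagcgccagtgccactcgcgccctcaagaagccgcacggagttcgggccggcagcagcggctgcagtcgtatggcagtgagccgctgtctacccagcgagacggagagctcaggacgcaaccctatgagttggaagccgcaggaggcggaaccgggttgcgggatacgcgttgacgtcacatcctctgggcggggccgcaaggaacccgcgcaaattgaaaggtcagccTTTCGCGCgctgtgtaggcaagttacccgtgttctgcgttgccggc
FANCD2, chr3:10026187-10026486, plus strand: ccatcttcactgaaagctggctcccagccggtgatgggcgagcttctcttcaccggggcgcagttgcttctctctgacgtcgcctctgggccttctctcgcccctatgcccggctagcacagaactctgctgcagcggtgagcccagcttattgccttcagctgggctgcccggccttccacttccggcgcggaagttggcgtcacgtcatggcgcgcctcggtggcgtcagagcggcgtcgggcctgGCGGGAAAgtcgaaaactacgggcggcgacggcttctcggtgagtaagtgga
XRCC2, chr7:152676092-152676391, minus strand: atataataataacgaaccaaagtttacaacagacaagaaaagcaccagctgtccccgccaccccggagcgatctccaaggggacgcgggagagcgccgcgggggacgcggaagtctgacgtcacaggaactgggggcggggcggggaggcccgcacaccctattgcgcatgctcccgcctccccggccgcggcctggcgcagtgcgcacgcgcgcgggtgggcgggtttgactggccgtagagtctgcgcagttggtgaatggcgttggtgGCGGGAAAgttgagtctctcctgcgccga

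A promoter was found for 43 of the 48 members, and 6 of these genes (13.95%) held such letters: the 3 above, FANCA, FANCC and XRCC6. The XRCC6 match began 42 bases after the start, and XRCC6 passed in no comparison. No promoter of BRCA1, BARD1 or BRCA2 held a match, nor did another listed promoter of EXO1. The share was 6.97% among 8862 tested genes with a promoter and 3.99% among all 27305 genes. Such letters were in 4 of 20 members higher in si2 than in si1, and in 2 of 16 members that did not pass between them. CCAAT, on either strand, was in 22 of 43 members (51.2%) and in 43.5% of tested genes, and TTTGAA, the core of the element found in many G2 and mitosis promoters, was in 6 of 43 (13.95%) and in 13.6%. The letters were not used to choose the genes, and a match describes the sequence only.

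Of 8 end joining genes tested, 4 passed between si2 and si1, 3 higher and 1 lower in si2, not far from the 38.5% called over all genes. PARP1 (ENSG00000143799, chr1:226360691-226408079, minus strand), which also serves the alternative end joining route, had 22.6 and 22.1 FPKM in si2, 35.9 and 33.8 FPKM in si1, and 36.2 and 38.5 FPKM in NC. Both si2 values lay below all 4 others and si1 overlapped no si2 value: the si2 mean was 0.597 times that of NC. The difference was -0.72 ± 0.066, adjusted p = 0.000629 from NC and -0.62 ± 0.066, adjusted p = 0.000637 from si1, the largest fall of any member in both comparisons, and neither was lost in any alternative. The si1 value relative to NC was -0.098 (adjusted p = 0.334, 95% interval -0.25 to 0.058). XRCC4, which holds the ligase LIG4 on the ends, had 7.76 and 7.27 FPKM in si2, 4.09 and 6.93 FPKM in si1, and 4.23 and 4.45 FPKM in NC. It rose in si2 against NC (0.67 ± 0.19, adjusted p = 0.0354), a call lost without any 1 NC or si2 library (adjusted p of 0.0931 to 0.137). Its 2 si1 values were far apart, one at the NC level and one near si2, and the si2 difference from si1 did not pass (0.42 ± 0.19, adjusted p = 0.119).

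The remaining end joining calls were small. XRCC5 (Ku80) had 117 and 115 FPKM in si2, 91.9 and 103 FPKM in si1, and 106 and 103 FPKM in NC, with a log2 difference of 0.25 ± 0.068, adjusted p = 0.0264 of si2 from si1. POLQ, the polymerase of microhomology-mediated joining, had 5.27 and 5.45 FPKM in si2, 4.301 and 3.81 FPKM in si1, and 4.89 and 4.33 FPKM in NC, with 0.33 ± 0.095, adjusted p = 0.0299. DCLRE1C, the nuclease Artemis that opens hairpin ends, had 2.602 and 2.88 FPKM in si2, 1.82 and 2.06 FPKM in si1, and 2.18 and 2.09 FPKM in NC, with 0.35 ± 0.11, adjusted p = 0.0455. None of the 3 passed against NC. The XRCC5 call was lost without either NC or either si2 library (adjusted p of 0.0546 to 0.129), the POLQ call without the second si1 or either si2 library (0.0925 to 0.12), and the DCLRE1C call without any 1 of the 6 (0.0629 to 0.182). XRCC6 (Ku70), PRKDC and LIG4 passed in no comparison. Their 95% intervals for si2 over si1 were -0.070 to 0.17, -0.21 to 0.17 and -0.056 to 0.42, so larger changes of the Ku70 and PRKDC transcripts lay outside them. In si1 against NC no end joining gene passed in limma, none had an unadjusted p under 0.05, and limma voom gave none.

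Of 11 sensing genes tested, NBN and RIF1 were higher in si2 than in si1 and none was lower, where 19.9% of all genes were called higher and 18.6% lower. NBN, the regulatory subunit of the MRE11 complex, had 14.7 and 12.5 FPKM in si2, 9.51 and 10.9 FPKM in si1, and 12.6 and 12.03 FPKM in NC, a difference of 0.38 ± 0.10, adjusted p = 0.0233. RIF1, which acts with TP53BP1 to protect ends from digestion, had 5.19 and 5.69 FPKM in si2, 3.9998 and 3.65 FPKM in si1, and 4.57 and 4.16 FPKM in NC, a difference of 0.42 ± 0.093, adjusted p = 0.0119. The NBN call was lost without the first si1 (adjusted p = 0.0965) or first si2 library (adjusted p = 0.135), and that of RIF1 without the second si2 library (adjusted p = 0.0715). Against NC, limma called no sensing gene in si1 or in si2. At an unadjusted p under 0.05 it gave 2 in si1 and 3 in si2, and limma voom on the recovered reads called 1 lower in si1 and 3 higher in si2.

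The kinases at the head of the signal passed in no comparison. ATM ranged over 2.14 to 3.003 FPKM and ATR over 4.89 to 6.04 FPKM, and the checkpoint kinases CHEK1 and CHEK2 over 3.25 to 4.33 FPKM and 4.37 to 5.71 FPKM. The 95% intervals for si2 over si1 were 0.034 to 0.52 for ATM, -0.035 to 0.35 for ATR, -0.18 to 0.34 for CHEK1 and -0.20 to 0.42 for CHEK2. The nuclease MRE11 had 3.69 and 3.97 FPKM in si2, 2.203 and 3.19 FPKM in si1, and 2.87 and 2.41 FPKM in NC, with an si2 difference of 0.41 ± 0.15, adjusted p = 0.0777 from NC. The scaffold MDC1 ranged over 5.46 to 7.98 FPKM, the ubiquitin ligases RNF8 and RNF168 over 3.23 to 4.54 FPKM and 8.705 to 11.04 FPKM, and TP53BP1 over 6.09 to 7.94 FPKM. TP53BP1 was the 1 sensing gene with a negative value in si2 against si1, -0.23 ± 0.092, adjusted p = 0.0886. Exons of TUBGCP4 on the other strand cover 28.7% of its exon bases.

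The 4 members below the filter averaged under 1 FPKM, but only NHEJ1 rests on very few reads. RAD51D and RAD50 had more reads in every library than FANCB, which was tested (51 to 90), spread over longer annotated exons. RAD51D had 194 and 201 reads in si2, 131 and 102 in si1, and 223 and 229 in NC. Here both si1 libraries were the lowest, and in the fit of recovered reads by limma voom without a filter, added after seeing the data, si1 lay at a log2 difference of -0.91 ± 0.20 from NC (adjusted p = 0.00836) and si2 at 0.87 ± 0.21 from si1 (adjusted p = 0.00844). RAD50 had 151 and 138 reads in si2, 138 and 96 in si1, and 110 and 126 in NC. An overlapping gene on the same strand covers 79.7% of the RAD50 exon bases, and one covers 65.4% of those of NHEJ1, so reads shared between them may not be in these values. NHEJ1, which stabilises the ends for ligation, had 1 and 5 reads in si2, 0 and 1 in si1, and 0 and 0 in NC. RAD51B had 64 and 68 reads in si2, 68 and 66 in si1, and 65 and 97 in NC. RAD50, NHEJ1 and RAD51B passed in no comparison of that fit.

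Other genes of the same pathways were read from lists of 69 partners, chosen by role with earlier results of these data known, 65 of them tested. Of these, 22 were higher and 7 lower in si2 than in si1 (median 0.090), 5 higher and 15 lower in si1 than in NC (median -0.078), and 11 higher and 10 lower in si2 than in NC (median 0.050). Over all genes 38.5%, 22.4% and 29.0% were called in these comparisons, so the partner counts in either direction lie near the background. By direction, 19.9% of all genes were higher and 18.6% lower between si2 and si1. These shares were 9.47% and 12.9% in si1 against NC, and 13.6% and 15.4% in si2 against NC. The partners called were mostly higher between si2 and si1 and mostly lower in si1 against NC. Partners of homologous recombination made up 12 of the 22, of 18 tested, with none lower and a median of 0.44. The other partner lists gave 4 higher and 1 lower of 20 for sensing, 2 and 3 of 13 for end joining, and 4 and 3 of 14 for the Fanconi pathway. Their medians were 0.017, 0.056 and 0.035. The si1 count of 20 partners was 5 without the first NC library and 7 without the second. The si2 count of 21 against NC was 8 and 9 without them, and 7 and 8 without the first and second si2 library, and the 29 between si2 and si1 were 19 without the first si2 library.

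UBE2T, the enzyme that supplies FANCL with ubiquitin, had 48.1 and 45.05 FPKM in si2, 22.6 and 24.9 FPKM in si1, and 34.6 and 37.4 FPKM in NC. It followed the order of FANCI, with si2 above si1 by 0.94 ± 0.077, adjusted p = 0.000227. RMI2, a subunit of the BLM complex, did the same with 8.94 and 9.56 FPKM in si2, 4.51 and 4.31 FPKM in si1, and 7.35 and 7.07 FPKM in NC (0.92 ± 0.077, adjusted p = 0.000248). Its partner RMI1 had 8.75 and 9.15 FPKM in si2, 5.44 and 5.73 FPKM in si1, and 7.05 and 7.31 FPKM in NC (0.60 ± 0.075, adjusted p = 0.00120). CDC25A, the phosphatase that CHEK1 restrains, had 8.595 and 8.27 FPKM in si2, 3.43 and 3.703 FPKM in si1, and 6.41 and 5.71 FPKM in NC, the largest partner difference between si2 and si1 (1.05 ± 0.087, adjusted p = 0.000239). CLSPN, which carries the signal from ATR to CHEK1, fell most in si1: it had 4.98 and 5.31 FPKM in si2, 2.77 and 2.88 FPKM in si1, and 5.85 and 5.65 FPKM in NC, or -0.82 ± 0.082, adjusted p = 0.000979 against NC. In si2 CLSPN lay at -0.14 ± 0.082, adjusted p = 0.258 from NC. These calls were kept without any 1 library.

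Some partners had si2 and si1 on the same side of NC. The ATR activators TOPBP1 and ETAA1 lay on opposite sides of it. TOPBP1 fell to 13.2 and 12.02 FPKM in si2 and 11.7 and 11.2 FPKM in si1, against 16.1 and 15.5 FPKM in NC. ETAA1 rose to 5.501 and 4.87 FPKM in si2 and 4.27 and 5.35 FPKM in si1, against 2.98 and 2.999 FPKM in NC. The values against NC were -0.37 ± 0.065, adjusted p = 0.00962 for TOPBP1 and 0.58 ± 0.099, adjusted p = 0.00834 for ETAA1, for the mean of both groups. The histone gene H2AFX, whose product is phosphorylated around breaks, had 24.7 and 24.4 FPKM in si2, 30.7 and 28.3 FPKM in si1, and 37.4 and 34.5 FPKM in NC, and RFWD3, a ubiquitin ligase of stalled forks, had 14.6 and 16.1 FPKM in si2, 15.4 and 16.2 FPKM in si1, and 22.1 and 20.7 FPKM in NC. Both fell in each group against NC. SFR1, an accessory factor of strand exchange, had 12.996 and 14.8 FPKM in si2, 8.71 and 9.13 FPKM in si1, and 6.47 and 6.505 FPKM in NC, the largest rise among partners in si2 (0.99 ± 0.083, adjusted p = 0.000471). SHLD2, a shieldin subunit that limits the trimming of ends, had 11.7 and 12.99 FPKM in si2, 10.5 and 13.3 FPKM in si1, and 8.32 and 8.28 FPKM in NC. MAD2L2, another shieldin subunit, had 8.91 and 8.54 FPKM in si2, 14.9 and 15.998 FPKM in si1, and 15.4 and 17.4 FPKM in NC: it fell in si2 against NC (-0.83 ± 0.083, adjusted p = 0.000856), while si1 lay at -0.078 ± 0.083, adjusted p = 0.548. The calls of SFR1, H2AFX and MAD2L2 in si2 were kept without any 1 library, and the others were less stable. For the mean of both groups, TOPBP1 and ETAA1 did not pass without either NC library (adjusted p of 0.0712 and 0.0952, and of 0.0687 to 0.0703). RFWD3 did not pass in either group without the first NC library (0.0548 and 0.0899), SHLD2 in either group without either NC library or the second library of that group (0.0704 to 0.123), and H2AFX in si1 without any 1 library except the first si1 library (0.0622 to 0.201).

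Genes of S phase and replication were also listed, again with earlier results of these data known. Of 40 listed and tested, 28 were higher and 1 lower in si2 than in si1 (median 0.60), 21 were lower and none higher in si1 than in NC (median -0.33), and 17 were higher and 3 lower in si2 than in NC (median 0.26). Over all genes the shares higher and lower were 19.9% and 18.6% between si2 and si1, 9.47% and 12.9% in si1 against NC, and 13.6% and 15.4% in si2 against NC. Without the first NC library the si1 count was 10 lower and without the second 11, and the si2 count of higher genes against NC was 4 without any 1 NC or si2 library. GINS1, part of the replicative helicase, had 12.8 and 13.4 FPKM in si2, 5.13 and 5.03 FPKM in si1, and 11.6 and 13.04 FPKM in NC. It was the S phase gene with the largest fall in si1 (-1.13 ± 0.080, adjusted p = 0.000291), followed by the flap nuclease FEN1, with 33.6 and 33.05 FPKM in si2, 16.4 and 17.3 FPKM in si1, and 34.99 and 34.6 FPKM in NC (-1.002 ± 0.062, adjusted p = 0.000167). In si2 the thymidine kinase TK1 had the largest change of the list and fell (44.9 and 46.5 FPKM in si2, 66.4 and 71.1 FPKM in si1, and 75.5 and 81.4 FPKM in NC), with -0.77 ± 0.066, adjusted p = 0.000510 against NC.

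Mitosis genes were called in both directions. Of 24 tested, 5 were higher and 6 lower in si2 than in si1 (median -0.033), 4 and 3 in si1 against NC (median -0.019), and 2 and 4 in si2 against NC (median -0.011), counts near the 38.5%, 22.4% and 29.0% called over all genes. Without the first NC library the counts against NC were 1 and 1 in si1 and 1 and 2 in si2, and without the second 2 and 1 in si1 and 1 and 1 in si2. Without either si2 library the si2 count against NC was 1 and 2. The mitotic kinase PLK1 had 11.1 and 10.9 FPKM in si2, 28.5 and 24.6 FPKM in si1, and 24.4 and 22.3 FPKM in NC and fell in si2 (-1.02 ± 0.088, adjusted p = 0.000510), while the spindle checkpoint kinase BUB1B had 18.6 and 17.6 FPKM in si2, 15.1 and 13.5 FPKM in si1, and 12.2 and 11.8 FPKM in NC and rose (0.55 ± 0.078, adjusted p = 0.00312). The cyclin CCNB2 rose in si1 (0.60 ± 0.099, adjusted p = 0.00644), with 19.9 and 20.6 FPKM in si2, 25.2 and 30.8 FPKM in si1, and 17.5 and 18.6 FPKM in NC, except without the first NC library (adjusted p = 0.0558), and the kinetochore gene NUF2 fell (-0.51 ± 0.072, adjusted p = 0.00350), with 14.7 and 13.99 FPKM in si2, 8.71 and 9.42 FPKM in si1, and 13.2 and 13.4 FPKM in NC. Between si2 and si1, and in si1 against NC, S phase genes moved like most members of homologous recombination and the Fanconi pathway. These comparisons share the si1 libraries. In si2 against NC the Fanconi members followed less, with 1 of 11 higher and 2 lower (median 0.11). The part of S phase genes in the results of the members was not tested.

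**Figure D4:**
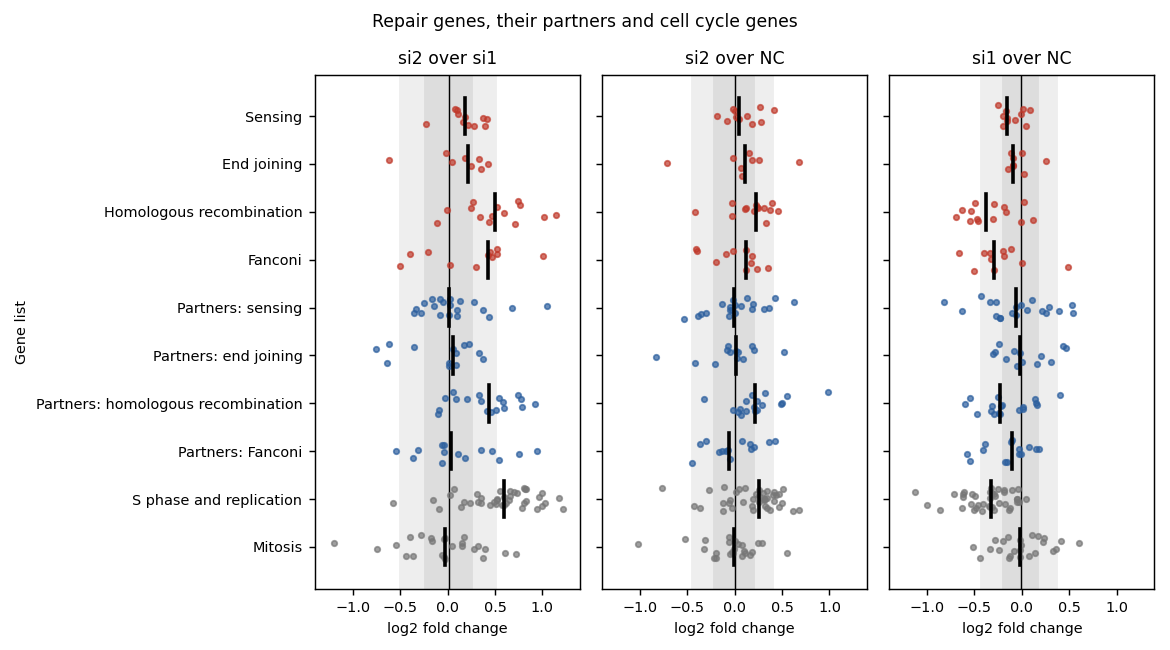
log2 fold change of each tested gene (points) by list, for si2 over si1, si2 over NC and si1 over NC, with list medians as thick black bars, repair members in red, partners in blue and cell cycle genes in grey. The dark and light bands hold the middle 50% and 80% of all genes tested; the medians of homologous recombination, its partners and S phase lie to the right for si2 over si1 (0.50, 0.44 and 0.60) and to the left for si1 over NC (-0.38, -0.23 and -0.33).

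The annotated 3′ UTRs were searched for a pair of 7-base words that an earlier look at these data had singled out, ACTCTCT among genes lower in si1 and GTCTGCA among genes lower in si2. They are shown because few members carry them. ACTCTCT was in the 3′ UTR of 2 of 44 members (4.55%), BARD1 and TP53BP1, against 11.5% of 10730 tested genes with a 3′ UTR. Among those genes the median 3′ UTR was 3136 bases in carriers and 1233 in others, and members without the word had 1060. The shares were not adjusted for this length. The matches, which describe the sequence only since no reagent sequence is given in the labels, are written 5′ to 3′ on the gene's strand (hg38, GENCODE release 29), with the word in capitals and its coordinates.
BARD1, chr2:214727014-214727020, minus strand: aataatttaagACTCTCTaggattttggt
BARD1, chr2:214727129-214727135, minus strand: agctctgaaacACTCTCTacaaccagtaa
TP53BP1, chr15:43403317-43403323, minus strand: gttcaagtcccACTCTCTcagtgaagcac
TP53BP1, chr15:43403463-43403469, minus strand: aagcgagtattACTCTCTtagccctgcac

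In si1 against NC, BARD1 was at -0.53 and TP53BP1 at 0.045. BRCA1, EXO1 and FANCI, the members with the largest falls in si1, did not carry the word in the annotated 3′ UTR. Carriers of GTCTGCA among all tested genes also had longer 3′ UTRs, with a median of 2881 bases against 1223 in others. GTCTGCA was in the 3′ UTR of 3 of 44 members (6.82%), FANCD2, RAD52 and PRKDC, against 13.0% of the 10730 genes. Their values in si2 against NC were 0.11, 0.12 and -0.017, and none of the 3 passed. The members that fell in si2, PARP1, XRCC3, FANCE and FANCG, did not carry it. Only exact matches were searched, and whether either word had a part in the changes was not tested.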

How the data were processed

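RNA of SK-MES-1 cells was sequenced in 6 libraries, 2 each of si2, si1 and NC, named in the labels. The authors deposited FPKM values for 58735 genes. The build was hg38, as the submitters' processing notes name it. Which aligner, counter and strand setting were used is not given in the sources used here. GENCODE release 29 had the same start and end for every gene. Multiplied by gene length, 100% of the values were whole multiples of 1 step per library within 0.001 reads, which recovered 14948607 to 17401392 reads per library. The FPKM denominator was 1.01 to 1.02 times that sum.

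limma 3.58.1 (R 4.3.3) was fitted to log2(FPKM + 1) of the 12319 genes that averaged 1 FPKM or more, with 1 coefficient per group, 3 residual and 4.03 prior degrees of freedom and a variance trend. Tests were two-sided, adjusted by Benjamini-Hochberg over all genes tested, with a threshold of 0.05. Alternatives changed the pseudocount, filter, centring, libraries and replicate block, or used limma voom on the recovered reads, where voom without a filter was chosen after seeing the data. Intervals cover the spread between libraries, and the limit of 3 reads at a count of 0 covers counting error only.

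The members and lists were chosen with earlier results of these data known. Members that passed in any comparison, and the highest and lowest of each role, are given per library. Of the partner lists the text names genes that passed in both groups against NC, and the 2 largest changes per comparison. Of the S phase and mitosis lists it names the 2 largest changes per group, apart from 1 gene that is not reported here. Promoters are from RefSeq (GRCh38.p14).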

Additional observations from a re-analysis of the deposited data

Results flagged for a closer look

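The si2 and si1 groups have the same stated target, and the test of the difference between them passed for 26 members, where 38.5% of the 12319 genes tested also passed. Of the 26, 15 were lost in at least 1 alternative. Each value is the log2 fold change of si2 over si1 from limma. Among genes of homologous recombination these were EXO1 at 1.15, BRCA1 at 1.02, XRCC2 at 0.76, BARD1 at 0.74, BRCA2 at 0.71, RAD54L at 0.60, RBBP8 at 0.52, RAD51AP1 at 0.47, BLM at 0.44, PALB2 at 0.34 and RAD51C at 0.27. Fanconi genes gave FANCI at 1.01, BRIP1 at 0.52, FANCD2 at 0.52, FANCB at 0.47, FANCM at 0.45, FANCL at 0.42 and FANCA at 0.30, with FANCE at -0.39 and FANCF at -0.50 on the other side. The end joining genes were DCLRE1C at 0.35, POLQ at 0.33, XRCC5 at 0.25 and PARP1 at -0.62, and the sensing genes RIF1 at 0.42 and NBN at 0.38.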

How the results depend on the processing

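No member reversed its direction among the genes called in any of the alternatives run, and 8 of the 26 genes called between si2 and si1 passed in all of them: PARP1, FANCI, RBBP8, BRCA1, FANCD2, EXO1, XRCC2 and FANCF. BRIP1, BARD1 and BRCA2 passed in all but the filter at a mean of 5 FPKM, which left them out. Against NC, FANCI, BRCA1 and EXO1 in si1 and PARP1 in si2 passed in all, and BARD1 in si1 in all but that filter, which left it out. Without a filter on low values, which tested 29572 genes, the members called were 13 between si2 and si1, 7 in si1, 5 in si2 and 1 for both groups. With a filter at a mean of 5 FPKM, which kept 24 members, 14 passed between si2 and si1. Treating the 4 knockdown libraries as 1 group called no member in limma, with 3 at an unadjusted p under 0.05, and 84 of all genes. Leaving out 1 library gave 12 to 25 members between si2 and si1, 5 to 13 in si1, 1 to 12 in si2 and 0 to 5 for both groups, where the lone library of a group was taken to vary like the others. The cause of these shifts was not tested, apart from the smaller number of members under the stricter filter. With limma voom on the recovered reads the counts were 30, 16, 14 and 6, where 44.5%, 30.4%, 36.3% and 28.8% of all genes were called. Deviations of libraries with the same replicate number correlated at -0.052, 0.050 and -0.058, so no strong shared effect of that number was seen. This cannot show whether libraries with the same number were prepared together. A replicate block gave 22, 10, 9 and 2 members, where 35.0%, 19.0%, 25.3% and 16.7% of all genes were called. Recovered reads limit NHEJ1 most, with at most 5 per library.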
